A study of Mus musculus with 45 samples.

Results

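The ileum of mice that lacked FADD and caspase-8 in the intestinal epithelium and MLKL in the whole body was compared with the ileum of floxed control mice. The series measured gene expression in ileum tissue with whole-transcript microarrays, and its 45 arrays fall into 9 genotypes of 5 arrays each. The comparison uses 15 of them. The genotype in the array titles chose 5 FADD IEC-KO CASP8 IEC-KO Mlkl -/- arrays, called triple mutants here, 5 Fadd fl/fl arrays and 5 Casp8 fl/fl arrays. IEC-KO stands for a deletion in intestinal epithelial cells, and fl/fl for an intact gene flanked by recombination sites. The control value of a gene was the mean of the Fadd fl/fl and Casp8 fl/fl group means. One probe stood for each gene, which gave 19494 genes.

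All mice were about 11 weeks old, were fed chow and were kept free of specified pathogens. The triple mutants carry 3 alterations that the controls lack: epithelial loss of Fadd, epithelial loss of Casp8 and germline loss of Mlkl. Mice with Mlkl -/- alone are not among the groups, so epithelial deletion and loss of Mlkl cannot be told apart in this comparison. The sources used here do not give the Cre driver, the sex of the mice or litter relations. The genotype field of the triple mutants names Casp8 and Mlkl but not Fadd, so the titles were followed, and the level of Fadd is given below as a check. Each title carries its own number, read here as 1 mouse per array. The p-values rest on the spread between arrays within a genotype, pooled over all 45 arrays of the series.

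FADD is the adaptor that joins death receptors to caspase-8, a protease that starts apoptosis and also cleaves RIPK1 and RIPK3. When this cleavage fails, RIPK3 can phosphorylate MLKL, which breaches the plasma membrane in necroptosis, and ZBP1 is a nucleic acid sensor that can engage RIPK3. Interferons bind receptors at the cell surface and act through transcription factors at interferon-stimulated response elements in promoters, and in the gut type III interferon acts mainly on the epithelium. Paneth cells sit at the base of the ileal crypts and secrete alpha-defensins.

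The values are log2 intensities, so a difference of 1 is a doubling. Differences are given as triple mutants minus controls with their standard error (SE), from a limma fit over all 45 arrays, and a gene was called where its Benjamini-Hochberg adjusted p was below 0.05. The median over genes of the SD between mice was 0.16 in the triple mutants and 0.19 in each control group. Every triple mutant has a title number of 200 or more, against 3 Fadd fl/fl mice and 1 Casp8 fl/fl mouse, and the titles do not say what the number marks. A fit within the mice numbered 200 or more, and one with the number series as a covariate, are therefore given where they matter. Fadd fl/fl mice 1 and 5 stood apart from the other controls: the mean of 7 MHC class II genes was 7.95 and 8.96 in them, against 9.26 to 9.72 in the other 8 controls and 9.61 to 9.74 in the triple mutants. Their T and intraepithelial lymphocyte list was also low, at 5.57 and 5.62. The named genes that lose their call without these mice are listed below. Genes given below with an adjusted p above 0.05 show a further step of a pathway, and most were chosen after their values were seen. Y-linked genes were high in 3 triple mutants, 3 Fadd fl/fl and 2 Casp8 fl/fl mice.

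The interferon-induced program led the rises in the triple mutants, Tnf, Fa2h and the signal of the Mt1 probe rose beside it, and the alpha-defensins of Paneth cells did not separate from the controls. Of 19494 genes, 720 were called, which is 3.69% of those tested. Of these, 419 were higher in the triple mutants (2.15%) and 301 were lower (1.54%). After quantile normalization 752 genes were called (3.86%), of which 315 were higher (1.62%) and 437 lower (2.24%), so the share of higher calls moved from 58.2% to 41.9% with that scaling. The median change over all genes was 0.01 in the deposited values. Most called changes were small, with a median of 0.36 among the risers and -0.39 among the fallers. At least 2-fold changes were measured for 34 called risers (0.174%), 19 of them on the list of type I interferon-induced genes. The 4 genes that fell at least 2-fold (0.0205%) were Casp8, Mlkl, Fadd and Reg4. All 5 triple mutants lay above all 10 controls for 236 genes (1.21%) and below them for 116 (0.595%), and 262 of these genes were also called (1.34%).

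**Figure D1:**
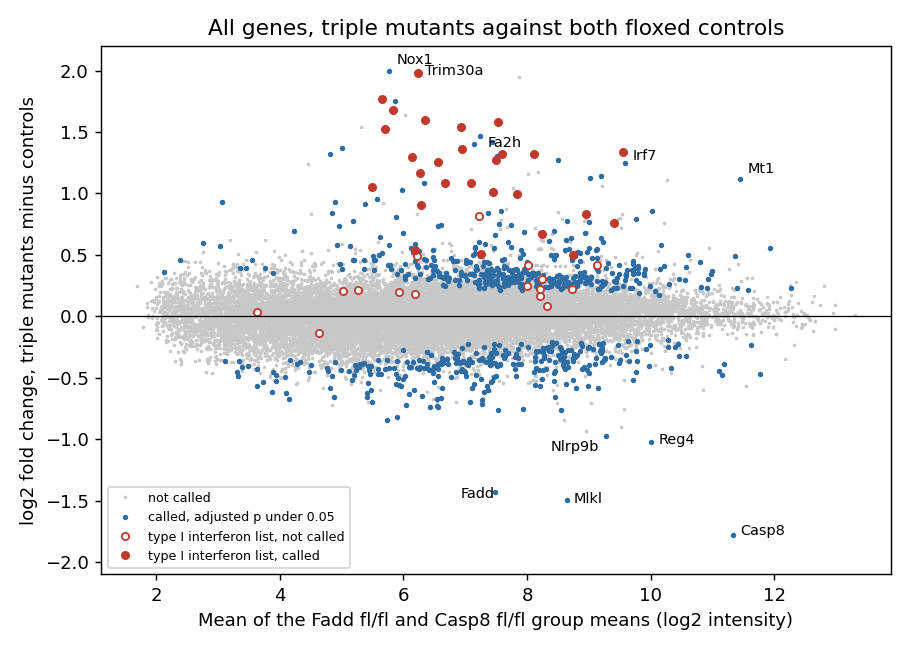
Each point is 1 gene, with its mean log2 intensity in the controls on the x axis and its log2 fold change, triple mutants minus controls, on the y axis; called genes and members of the type I interferon list are coloured as the key says, and 10 genes are named. The interferon list lies mostly above 0, and Casp8, Mlkl and Fadd lie lowest.

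Against Fadd fl/fl alone 587 genes were called (3.01%), and against Casp8 fl/fl alone 230 (1.18%). Both comparisons use the same triple-mutant arrays. In each of them 76 genes were higher (0.39%) and 58 were lower (0.298%), and 0 went in opposite directions. Some named genes were called against Fadd fl/fl and not against Casp8 fl/fl. Among them, with the adjusted p against Casp8 fl/fl, were Traf2 (0.1509), Adar (0.0664), Socs3 (0.3467), Stat3 (0.3567) and Ubd (0.1837). So were Mttp (0.2372), Apoa4 (0.2583), Vil1 (0.4446) and Reg4 (0.2890). Bak1, Ccl25, Ifnk and Nox1 were called against Casp8 fl/fl and not against Fadd fl/fl. Between the control groups 1 gene was called (0.00513%), with 1634 at an unadjusted p below 0.05 in the same limma fit. It was Pisd-ps3, a pseudogene, which was 8.20 to 8.42 in Fadd fl/fl and 9.23 to 9.37 in Casp8 fl/fl mice. Within the title series of 200 and over, 285 genes were called for the triple mutants (1.46%), 111 higher (0.569%) and 174 lower (0.893%). With the series as a covariate 475 were called (2.44%), 258 higher (1.32%) and 217 lower (1.11%), and without Fadd fl/fl mice 1 and 5 the count was 444 (2.28%). No call changed sign in any alternative fit. Leaving out a single triple mutant left 387 calls without mouse 1, 411 without mouse 2, 435 without mouse 3 and 368 without mouse 5.

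Of the 74 called genes that the naming rule took, 47 kept the call whichever of the 15 mice was left out. The other 27 lost it without at least 1 mouse, at adjusted p-values of 0.0503 to 0.2553: Apoa4, Ccl25, Clock, Col6a2, Fabp5, H2-D1, Ifih1, Ifnlr1, Mcpt2, Mmp2, Mvd, Naip6, Ndufa1, Nox1, Nupr1, Reg4, Rhob, Sec14l4, Socs3, Spata1, St3gal6, Stat3, Stk10, Tie1, Ubd, Vegfa and Vil1. With only the groups of the comparison fitted 11 lost it, among them Ccl25, Fabp5, Ifnlr1, Nupr1, Rhob, Stk10 and Vil1. Without Fadd fl/fl mice 1 and 5 together 17 lost it: Apoa4, Ccl25, Clock, Fabp5, H2-D1, Ifih1, Ifnlr1, Mvd, Naip6, Ndufa1, Nox1, Reg4, Socs3, Stk10, Tapbp, Ubd and Vegfa. With the title series as a covariate 11 lost it: Ccl25, Clock, Fabp5, Ifnlr1, Mvd, Naip5, Naip6, Nox1, Rhob, Stat3 and Vegfa. The fit within the title series of 200 and over held all 17 arrays so numbered. It compared the 5 triple mutants with 3 Fadd fl/fl mice and 1 Casp8 fl/fl mouse, pooled as 1 control group. In that fit 33 lost the call. Beside the 11 lost with the covariate they were Adar, Bak1, Cyc1, H2-D1, Ifih1, Ifnk, Mcpt2, Ndufa1, Nlrp9b, Nupr1, Reg4, Sdc1, Sdha, Sec14l4, Socs3, Stk10, Tapbp, Tie1, Tnfaip3, Ttll3, Ubd and Vps37c.

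The targeted genes were low in every triple mutant. Casp8, the initiator caspase, read 9.6, 9.46, 9.52, 9.49 and 9.68 in triple mutants 1 to 5. Fadd fl/fl mice read 11.09 to 11.51 and Casp8 fl/fl mice 11.24 to 11.49. The groups were separated by more than 1 log2 unit at every mouse, and Casp8 fell by 1.78 (SE 0.12, adjusted p = 3.87e-14), a level 3.44-fold lower. Fadd was 6.10, 5.34, 6.52, 6.27 and 6.02 in the triple mutants and 7.27 to 7.61 in the controls, and it fell by 1.43 (SE 0.15, adjusted p = 2.02e-08). Triple mutant 2 was the lowest for Fadd and triple mutant 3 the highest, and neither reached the controls. Whole ileum also holds muscle, stromal and immune cells that keep Fadd and Casp8. Mlkl was 7.18, 6.94, 7.31, 6.94 and 7.32 in the triple mutants and 8.31 to 9.09 in the controls, a fall of 1.50 (SE 0.17, adjusted p = 1.37e-07).

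The triple mutants also read lower for Mlkl than mice of the series with the same Mlkl -/- label. FADD IEC-KO Mlkl -/- mice read 7.85 to 8.39 and CASP8 IEC-KO Mlkl -/- mice 8.18 to 8.66, above all 5 triple mutants. The difference was -0.91 ± 0.20 (SE, adjusted p = 0.0027) from the former and -1.29 ± 0.20 (adjusted p = 1.54e-04) from the latter. Where the probe lies relative to the altered part of Mlkl is not given in the sources used here. Ripk3, the kinase upstream of MLKL, was 8.34 to 8.68 in the triple mutants and 7.75 to 8.47 in the controls (0.30 ± 0.14, adjusted p = 0.2482). Zbp1, itself interferon-induced, was 8.22, 7.88, 8.30, 7.76 and 8.05 in the triple mutants. It was 6.23 to 7.72 in Fadd fl/fl and 6.87 to 7.92 in Casp8 fl/fl mice, so the groups overlapped, and its difference of 0.82 ± 0.25 missed the threshold (adjusted p = 0.0587).

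Of 43 measured type I interferon-induced genes, 27 rose and 0 fell, against 2.15% of all genes called higher. The median difference over the 43 was 0.83, beside 0.01 over all genes, and 42 lay above 0. In 23 of the 27 risers no triple mutant overlapped a control, where 1.21% of all genes lay above all controls. The 27 were chosen by their rise in these same arrays, so a lack of overlap is partly built in. The list mean was 7.90 ± 0.13 (SD, n = 5) in the triple mutants, 7.06 ± 0.21 in Fadd fl/fl and 7.05 ± 0.15 in Casp8 fl/fl mice. The lowest triple mutant, at 7.75, was above the highest control, at 7.29. Within the title series of 200 and over 23 of the 27 calls were kept, with the series as a covariate 26, and without Fadd fl/fl mice 1 and 5 25.

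Promoters of leading risers show where the interferon-stimulated response element stands. The windows below run from 250 bases before to 50 bases after the transcription start, 5′ to 3′ along the gene, as RefSeq gives them. Capitals mark the core of that element on either strand: GAAA, 2 bases of any kind and GAAA again, which on the opposite strand reads TTTC, 2 bases and TTTC. Isg15 has 3 overlapping matches between 78 and 66 bases before the start, Ifit1 has 2, at 104 and 85 bases, and Trim30a has 1, at 36 bases, in 1 of its 2 windows in the table. Oasl1 has 0 in this window.
Isg15 (GRCm38.p6 chr4:156200769-156201068, minus strand): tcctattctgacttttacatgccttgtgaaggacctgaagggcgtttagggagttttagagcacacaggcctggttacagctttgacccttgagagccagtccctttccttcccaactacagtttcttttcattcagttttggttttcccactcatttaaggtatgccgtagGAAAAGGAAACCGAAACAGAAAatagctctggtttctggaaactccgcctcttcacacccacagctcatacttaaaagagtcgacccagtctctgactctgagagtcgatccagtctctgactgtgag
Ifit1 (GRCm38.p6 chr19:34640639-34640938, plus strand): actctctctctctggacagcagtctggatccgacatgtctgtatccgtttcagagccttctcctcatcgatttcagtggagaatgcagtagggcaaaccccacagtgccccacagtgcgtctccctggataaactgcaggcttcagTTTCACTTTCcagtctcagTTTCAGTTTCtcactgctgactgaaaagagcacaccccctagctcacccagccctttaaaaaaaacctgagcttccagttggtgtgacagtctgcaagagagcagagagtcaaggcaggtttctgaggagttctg
Trim30a (GRCm38.p6 chr7:104465144-104465443, minus strand): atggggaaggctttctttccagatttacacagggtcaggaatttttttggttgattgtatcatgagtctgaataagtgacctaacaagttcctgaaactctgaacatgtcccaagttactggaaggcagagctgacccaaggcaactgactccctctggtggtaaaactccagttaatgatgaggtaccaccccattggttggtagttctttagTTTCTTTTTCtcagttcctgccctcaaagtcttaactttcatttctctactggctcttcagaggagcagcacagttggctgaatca
Oasl1 (GRCm38.p6 chr5:114922990-114923289, plus strand): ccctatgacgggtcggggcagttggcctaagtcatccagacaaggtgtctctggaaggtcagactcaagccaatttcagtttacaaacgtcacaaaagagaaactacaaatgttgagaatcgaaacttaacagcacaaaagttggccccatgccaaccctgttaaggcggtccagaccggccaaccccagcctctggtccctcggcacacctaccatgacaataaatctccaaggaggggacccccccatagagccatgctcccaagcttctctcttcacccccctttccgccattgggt
The motif was found in 3.94% of the 15683 tested genes with such a window, in 9.31% of the 333 risers with one and in 2.89% of the 242 fallers. Among the 22 called interferon genes with a window 11 held it (50%). A match describes letters only, and these shares carry no test.

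The largest rise on the list was that of Trim30a, a TRIM-family regulator of inflammatory signalling. It read 8.28, 7.97, 8.62, 8.22 and 7.97 in the triple mutants, 5.84 to 6.91 in Fadd fl/fl and 5.42 to 6.66 in Casp8 fl/fl mice. All triple mutants were above all controls by at least 1 log2 unit, and the rise was 1.98 ± 0.30 (SE, adjusted p = 5.67e-05), or 3.94-fold. Oas2, which makes 2′-5′ oligoadenylate from double-stranded RNA to activate RNase L, read 7.45, 7.05, 7.88, 7.29 and 7.43 against 5.33 to 5.92 in the controls. Its rise of 1.77 ± 0.18 (adjusted p = 5.27e-09) was 3.41-fold. Isg15, a ubiquitin-like protein conjugated to others during the interferon response, read 7.64, 7.60, 7.74, 7.82 and 6.73, and 5.23 to 6.35 in the controls. Triple mutant 5 was well below the other 4 for Isg15 and still above every control, and the rise was 1.68 ± 0.24 (adjusted p = 2.58e-05).

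Oasl1, which limits translation of Irf7 RNA, read 8.12, 7.60, 7.81, 7.84 and 8.34 in the triple mutants and rose by 1.60 ± 0.21 (adjusted p = 3.74e-06). Casp8 fl/fl mouse 5, at 7.11, was the nearest control, and the others lay between 5.82 and 6.75. Ifit1 binds RNA that lacks cap methylation, and Usp18 removes ISG15 and restrains the interferon receptor. Ifit1 was 8.90 to 9.43 against 6.73 to 7.90 in the controls, a rise of 1.58 ± 0.28 (adjusted p = 5.14e-04). Usp18 was 8.21 to 8.76 against 6.22 to 7.38, a rise of 1.54 ± 0.29 (adjusted p = 0.0010). Rtp4, an interferon-induced transport protein, was 6.91 to 7.71 against 5.48 to 6.14 and rose by 1.52 ± 0.20 (adjusted p = 4.68e-06). All 3 were separated from every control.

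The other called members, named so that the whole list is accounted for, belong to the same families. Among the oligoadenylate synthetases Oasl2, Oas3, Oas1a, Oas1g and Oas1b rose, from 1.34 in Oasl2 to 0.51 in Oas1b. Ifit2, Ifit3 and Ifit3b, RNA-binding relatives of Ifit1, rose by 1.06 to 1.36. Bst2, which tethers budding virions, rose by 1.32, Herc6, an ISG15 ligase of mice, by 1.32 and Rsad2, the radical SAM enzyme viperin, by 1.17. Slfn5, Slfn4, Xaf1, Phf11d, Sp100, Lgals3bp, Cmpk2, Ifi27l2a and Helz2 made up the rest, between 0.50 in Helz2 and 1.26 in Slfn5. The 16 members that were not called lay between -0.14 in Slfn1 and 0.82 in Zbp1. They included the antiviral GTPases Mx1 (0.21 ± 0.17, adjusted p = 0.5581) and Mx2 (0.49 ± 0.21, adjusted p = 0.2049) and the kinase gene Eif2ak2 (0.22 ± 0.11, adjusted p = 0.2687).

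Of the 34 called genes at least 2-fold higher, 15 lay outside the list. Apol9a, a murine apolipoprotein L gene, was 8.71 to 9.07 in the triple mutants and 7.13 to 7.63 in the controls, and rose by 1.42 ± 0.12 (adjusted p = 1.69e-10). Slfn2, a Schlafen family gene, was 8.08 to 8.87 against 6.58 to 7.72 and rose by 1.40 ± 0.25 (adjusted p = 5.14e-04). Neither overlapped a control. The others outside the list include Serpina10, a serpin that inhibits coagulation proteases (1.32), Cd177, a neutrophil surface glycoprotein (1.30, adjusted p = 0.0482, with overlap), Ceacam10 (1.27), the locus Gm13547 (1.13) and Mreg (1.08), named after their values were seen. Near-identical family members such as Apol9b, the Oas1 copies and Ifit3 with Ifit3b can share probe signal, so their values are not independent.

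Along the pathway itself the rise was uneven. Irf7, the transcription factor that amplifies interferon production, read 10.89, 10.74, 10.96, 10.87 and 10.76 in the triple mutants. It read 9.03 to 9.55 in Fadd fl/fl and 9.64 to 10.13 in Casp8 fl/fl mice, so the triple mutants stood clear of both and were close to each other. The rise was 1.25 ± 0.15 (adjusted p = 2.54e-07), or 2.38-fold. Where 2.15% of all genes were called higher and 1.54% lower, 4 of the 20 interferon receptors, STATs and IRFs rose and 1 fell. Beside Irf7 they were Socs3, a feedback inhibitor of STAT signalling (0.46, adjusted p = 0.0318), Stat3 (0.36, adjusted p = 0.0150) and Irf9, an interferon regulatory factor (0.36, adjusted p = 0.0247). Ifnlr1, the chain of the type III interferon receptor that binds the ligand, fell by 0.38 (adjusted p = 0.0220). Without Fadd fl/fl mice 1 and 5 neither Socs3 (adjusted p = 0.0769) nor Ifnlr1 (adjusted p = 0.0969) was called, and with the title series as a covariate neither Ifnlr1 (adjusted p = 0.0599) nor Stat3 (adjusted p = 0.0718) was. Stat2 lay above every control in all 5 triple mutants, at 9.04 to 9.23 against 8.49 to 8.89, but was not called (0.38 ± 0.14, adjusted p = 0.1369). Ifnar1, a chain of the type I receptor, differed by 0.08 ± 0.08 (adjusted p = 0.6407).

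No interferon ligand was called higher. Of 11 ligands 1 was called, and it was lower: Ifnk, a type I interferon of epithelia, fell by 0.53 (SE 0.12, adjusted p = 0.0063) at a dim level, 2.96 to 3.67 in the triple mutants. Ifnb1 was 5.09 to 5.32 in the triple mutants and 4.94 to 5.50 in the controls, a difference of 0.01 ± 0.11 (adjusted p = 0.9739). Ifnl2, a type III interferon, differed by -0.12 ± 0.10 (adjusted p = 0.5928). Where 2.15% of all genes were called higher, 4 of 14 nucleic acid sensors and adaptors rose. They were the RNA sensors Ddx58, known as RIG-I (0.84 ± 0.13, adjusted p = 5.72e-05), Ifih1, known as MDA5 (0.39 ± 0.11, adjusted p = 0.0336), and Dhx58, known as LGP2 (1.03 ± 0.18, adjusted p = 4.16e-04), and the RNA-editing enzyme Adar (0.48 ± 0.09, adjusted p = 6.41e-04). For these 4 genes every triple mutant was above every control, as for 1.21% of all genes. Ifih1 was not called without Fadd fl/fl mice 1 and 5 (adjusted p = 0.0633) or after quantile normalization (adjusted p = 0.0573).

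Where 2.15% of all genes were called higher, 1 of 18 genes known as targets of interferon gamma was. Of the 18, 17 lay above 0, and the median difference was 0.48. Ubd, the ubiquitin-like protein FAT10, read 6.93 to 8.11 in the triple mutants. In Fadd fl/fl mice it read 4.16, 6.36, 6.45, 6.42 and 4.41, and in Casp8 fl/fl mice 5.32 to 7.15, so the groups overlapped. Its rise of 1.75 ± 0.47 (adjusted p = 0.0258) lost the call without Fadd fl/fl mice 1 and 5 (adjusted p = 0.1148). The mean of the list was 7.02 and 6.95 in those mice and 8.03 to 8.21 in the other 3 of the group. It was 7.14 to 8.07 in Casp8 fl/fl mice and 7.86 to 8.50 in the triple mutants. The median difference of the list was 0.34 from Fadd fl/fl and 0.58 from Casp8 fl/fl mice. From both controls without Fadd fl/fl mice 1 and 5 it was 0.29. Against the same 2.15% of all genes, 2 of 13 genes of MHC class I processing rose. They were the class I chain H2-D1 (0.41 ± 0.12, adjusted p = 0.0479) and the peptide-loading chaperone Tapbp (0.35 ± 0.09, adjusted p = 0.0154). Both calls were also lost without Fadd fl/fl mice 1 and 5 (adjusted p = 0.1651 and 0.0562). All 13 lay above 0, with a median difference of 0.34, or 0.26 without these 2 mice. Of 7 MHC class II genes 0 were called, and H2-Ab1, a class II chain, differed by 0.39 ± 0.31 (adjusted p = 0.5562). All 7 lay above 0, with a median difference of 0.39, or 0.13 without the same 2 mice.

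**Figure D2:**
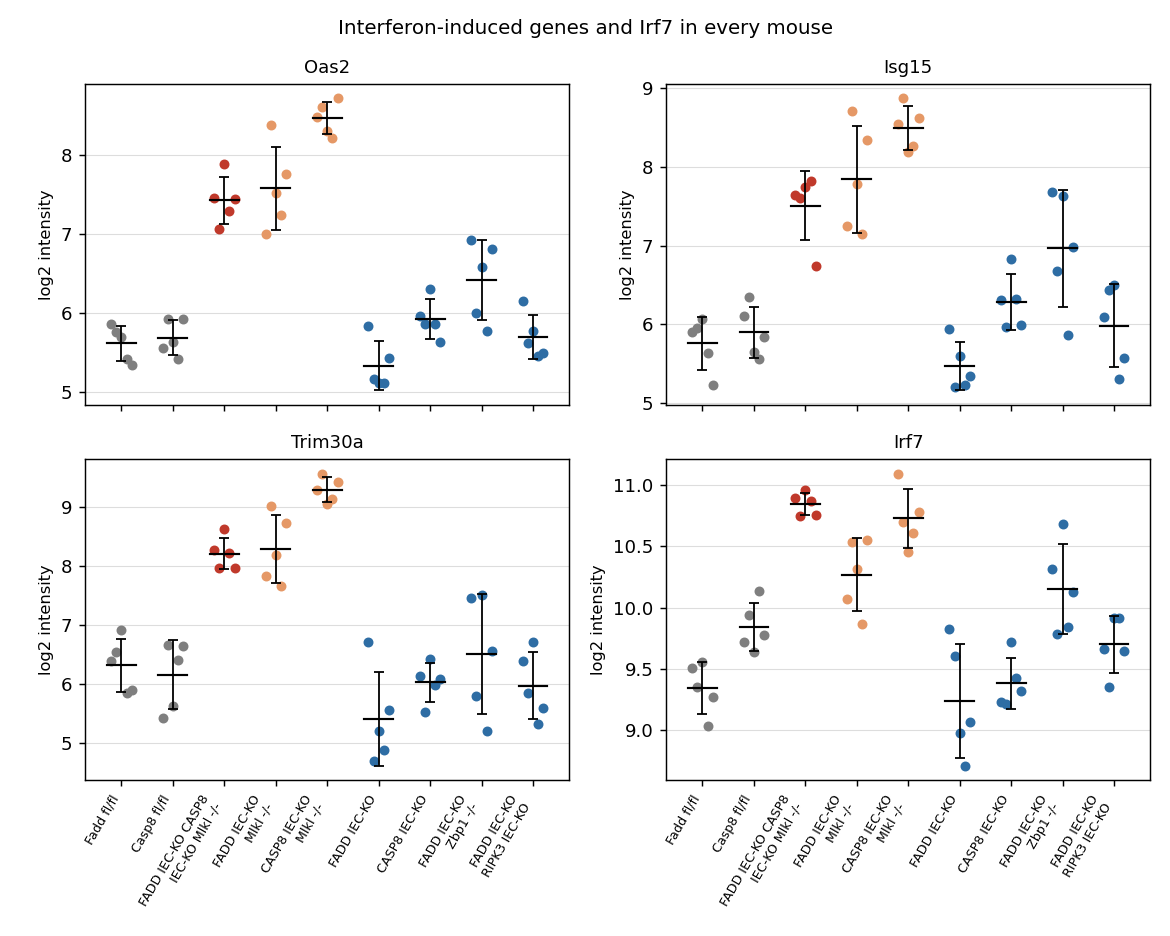
Each panel plots 1 gene, Oas2, Isg15, Trim30a or Irf7, with log2 intensity on the y axis and the 9 genotypes on the x axis; each point is 1 mouse, and the lines mark the group mean and SD (n = 5). The triple mutants stand above all 10 floxed controls in each panel, and the CASP8 IEC-KO Mlkl -/- mean is the highest for Oas2, Isg15 and Trim30a.

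The interferon level of the triple mutants was set beside that of the double mutants, which carry Mlkl -/- with 1 epithelial deletion. Beside a list mean of 7.90 in the triple mutants, FADD IEC-KO Mlkl -/- mice had 8.04 and CASP8 IEC-KO Mlkl -/- mice 8.60, and the 6 groups with intact Mlkl had 6.80 to 7.36. Of the 27 genes, which were chosen by the triple mutants' difference from the controls, 26 had a higher mean in each of the 3 Mlkl -/- groups than in each of the other 6. The triple mutant mean was below that of CASP8 IEC-KO Mlkl -/- in all 27 and below that of FADD IEC-KO Mlkl -/- in 14. Against CASP8 IEC-KO Mlkl -/- 19 of the 43 genes were lower in the triple mutants, where 1.07% of all genes were called lower. With the title series as a covariate the number was 8, where 0.344% of all genes were called lower. In CASP8 IEC-KO Mlkl -/- 4 of the 5 mice have numbers below 100.

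Oas2 read 8.48, 8.61, 8.30, 8.21 and 8.71 in CASP8 IEC-KO Mlkl -/- mice, above every triple mutant, and the difference was -1.04 ± 0.20 (adjusted p = 0.0023). Isg15 read 8.18 to 8.87 there, and its difference of -0.98 ± 0.28 (adjusted p = 0.0414) was not called with the series as a covariate (adjusted p = 0.3321). Against FADD IEC-KO Mlkl -/- 4 of the 43 genes were lower, or 2 with the covariate, where 2.35% and 1.32% of all genes were called lower. Oas2 read 7.0, 8.37, 7.51, 7.23 and 7.75 in those mice, a range that held all 5 triple mutants. Irf7 did not follow the list here, with 9.87 to 10.55 in FADD IEC-KO Mlkl -/-, below all triple mutants, and 10.45 to 11.09 in CASP8 IEC-KO Mlkl -/- mice.

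Cell death and NF-kB genes gave a few rises with Tnf in front. Tnf, the cytokine that signals through FADD and caspase-8, read 6.11, 6.46, 6.55, 5.75 and 6.94 in the triple mutants, 4.41 to 5.35 in Fadd fl/fl and 4.80 to 5.56 in Casp8 fl/fl mice. No triple mutant overlapped a control, although triple mutant 4 came close, and the rise was 1.37 ± 0.22 (adjusted p = 8.99e-05), or 2.58-fold. It read 6.56 to 6.96 in FADD IEC-KO Mlkl -/- and 5.65 to 6.58 in CASP8 IEC-KO Mlkl -/- mice. Traf2, the ubiquitin ligase adaptor of TNF receptors, rose by 0.51 ± 0.09 (adjusted p = 4.24e-04, or 0.1509 against Casp8 fl/fl alone). Bak1, a pore-forming effector of mitochondrial apoptosis, rose by 0.39 ± 0.09 (adjusted p = 0.0092, or 0.0506 against Fadd fl/fl alone). Of the 26 genes of necroptosis, apoptosis and death receptors these 3 rose and 1, Mlkl, fell. Over all genes 2.15% were called higher and 1.54% lower. Cflar, the caspase-8 homologue c-FLIP, differed by -0.13 ± 0.08 (adjusted p = 0.4538).

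Of 12 NF-kB subunits and feedback genes 2 rose, against 2.15% of all genes called higher. Nfkb2, the precursor of the p52 subunit, was 7.77 to 8.39 in the triple mutants and 7.27 to 7.65 in the controls, a rise of 0.66 ± 0.08 (adjusted p = 7.94e-07). Tnfaip3, the ubiquitin-editing inhibitor A20, rose by 0.54 ± 0.12 (adjusted p = 0.0069) with an overlap of the groups. Among 27 inflammatory cytokines and chemokines 0 rose and Ccl25, the chemokine that draws lymphocytes to the small intestine, fell by 0.25 (SE 0.07, adjusted p = 0.0277; 0.0584 without Fadd fl/fl mice 1 and 5 and 0.0932 with the title series as a covariate).

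Of 24 inflammasome and gasdermin genes 3 fell and 0 rose, against 1.54% of all genes called lower. With the title series as a covariate 1 was called, Nlrp9b, and within the series of 200 and over 0 were. Nlrp9b, an epithelial inflammasome sensor of the small intestine, read 8.43, 8.17, 8.64, 8.50 and 7.78 in the triple mutants and 8.96 to 9.81 in the controls, a fall of 0.98 (SE 0.18, adjusted p = 8.02e-04). No mouse of one group reached the other. Naip5 and Naip6, epithelial sensors of flagellin, fell by 0.44 (SE 0.10, adjusted p = 0.0089) and 0.39 (SE 0.10, adjusted p = 0.0231), and Naip6 lost the call without Fadd fl/fl mice 1 and 5 (adjusted p = 0.0861). Within the series of 200 and over the adjusted p was 0.0519 for Nlrp9b, 0.1273 for Naip5 and 0.1590 for Naip6. The protease gene Casp1 (0.18 ± 0.08, adjusted p = 0.2436) and the pore former Gsdmd (0.18 ± 0.08, adjusted p = 0.2387) were not called.

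Of 19 epithelial antimicrobial and oxidase genes 1 rose and 1 fell, where 2.15% of all genes were called higher and 1.54% lower. Of the 17 not called, 14 lay above 0. Nox1, the epithelial NADPH oxidase, had the largest difference of all called genes. It read 7.40, 7.90, 7.70, 7.24 and 8.57 in the triple mutants. In Fadd fl/fl mice it read 4.07, 7.11, 7.15, 6.77 and 4.73 and in Casp8 fl/fl mice 4.31 to 6.57. The triple mutants were above every control, but Fadd fl/fl mice 2, 3 and 4 came close to the lowest of them, and mice 1 and 5 of that group were among the lowest values. The rise was 2.0 ± 0.49 (adjusted p = 0.0160). It was called against Casp8 fl/fl alone (adjusted p = 0.0411) and not against Fadd fl/fl alone (adjusted p = 0.0719). Within the title series of 200 and over it was 1.46 ± 0.49 (adjusted p = 0.1551), with the series as a covariate the adjusted p was 0.0533, without Fadd fl/fl mice 1 and 5 it was 0.0785, and without triple mutant 5 it was 0.0673. Reg4, a secreted lectin of secretory cells, was 8.51 to 9.40 in the triple mutants and 9.10 to 11.63 in the controls, and fell by 1.02 (SE 0.28, adjusted p = 0.0304). This call was lost as well without these 2 mice (adjusted p = 0.0738) and without triple mutant 2 (adjusted p = 0.1038). The antimicrobial lectins Reg3g (0.28 ± 0.16, adjusted p = 0.3690) and Reg3b (0.09 ± 0.10, adjusted p = 0.6963) were not called.

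Fa2h, which hydroxylates fatty acids of sphingolipids, read 8.03, 9.24, 8.84, 8.30 and 9.12 in the triple mutants, 6.61 to 7.53 in Fadd fl/fl and 7.27 to 7.84 in Casp8 fl/fl mice. All triple mutants were above all controls, and the rise was 1.47 ± 0.23 (adjusted p = 5.94e-05), or 2.76-fold. It read 8.47 to 9.15 in FADD IEC-KO Mlkl -/- and 7.31 to 8.15 in CASP8 IEC-KO Mlkl -/- mice. Its mean was 8.71 in the triple mutants. With Mlkl intact the mean of Fa2h was 8.74 (FADD IEC-KO) and 8.60 (CASP8 IEC-KO). It was 8.77 (FADD IEC-KO Zbp1 -/-) and 8.22 (FADD IEC-KO RIPK3 IEC-KO) where Mlkl was likewise intact. Whether the rise depends on the Mlkl locus was not tested. Fa2h is the next annotated gene to Mlkl on chromosome 8, where 1 of 40 measured genes near Mlkl (20 on each side) was called (2.5%). Around Casp8 0 of 40 were called, and around Fadd 3 of 28 (10.7%), against 3.69% of all genes. The nearest to Fadd was Cttn, the actin regulator cortactin, 2 genes away. It was 10.08 to 10.26 in the triple mutants, 9.54 to 9.71 in Fadd fl/fl and 9.92 to 10.00 in Casp8 fl/fl mice, and rose by 0.40 ± 0.06 (adjusted p = 2.58e-05). The others were Tnfrsf26, 11 genes away, which fell by 0.36 (SE 0.11, adjusted p = 0.0444), and Kcnq1ot1, 17 genes away, which fell by 0.63 (SE 0.15, adjusted p = 0.0095). These 3 were chosen for their position and named after their values were seen.

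Few genes of the absorptive epithelium were called. Where 2.15% of all genes were called higher, 1 of 23 enterocyte and brush border genes rose. It was the actin bundler Vil1, at 11.77 to 11.85 in the triple mutants and 11.35 to 11.80 in the controls (0.21 ± 0.06, adjusted p = 0.0394). That call was lost after quantile normalization (adjusted p = 0.0914). The ileal bile acid binding protein Fabp6 (-0.03 ± 0.10, adjusted p = 0.8985) and the bile acid transporter Slc10a2 (0.06 ± 0.09, adjusted p = 0.7965), which mark the tissue as ileum, stood at 12.45 to 12.78 and 11.54 to 11.73 in the triple mutants. None of the 13 ileal bile acid and cobalamin genes was called.

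Lipid handling gave 4 rises among 19 genes, where 2.15% of all genes were called higher. Dgat2, which makes triglyceride, was 9.54 to 9.79 in the triple mutants and 8.78 to 9.44 in the controls, and rose by 0.54 ± 0.09 (adjusted p = 1.17e-04). Mttp, which loads lipid onto apolipoprotein B, rose by 0.44 ± 0.10 (adjusted p = 0.0052), and the fatty acid carrier Fabp5 by 0.43 ± 0.12 (adjusted p = 0.0370). The chylomicron apolipoprotein Apoa4 was 10.08 to 10.52 in the triple mutants, 7.84 to 9.62 in Fadd fl/fl and 8.78 to 10.10 in Casp8 fl/fl mice. Its rise of 1.14 ± 0.31 (adjusted p = 0.0265) lost the call without Fadd fl/fl mice 1 and 5 (adjusted p = 0.0899), as did that of Fabp5 (adjusted p = 0.1361). Of 19 subunits of the mitochondrial respiratory chain 3 rose, against the same 2.15%: Cyc1 by 0.32, Ndufa1 by 0.30 and Sdha by 0.27. Jund, an AP-1 subunit, rose by 0.40 ± 0.07 (adjusted p = 7.98e-04), the sole call among 20 immediate early genes. Mvd, an enzyme of the mevalonate pathway, rose by 0.44 (adjusted p = 0.0439), 1 of 17 cholesterol synthesis genes. Clock, a core clock transcription factor, fell by 0.25 (adjusted p = 0.0238), 1 of 17 clock genes. Over all genes 2.15% were called higher and 1.54% lower. Without Fadd fl/fl mice 1 and 5 the calls of Ndufa1 (adjusted p = 0.0751), Mvd (adjusted p = 0.0650) and Clock (adjusted p = 0.0723) were lost. With the title series as a covariate those of Fabp5 (adjusted p = 0.0985), Mvd (adjusted p = 0.1338) and Clock (adjusted p = 0.0694) were.

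The alpha-defensins did not separate the triple mutants from the controls. Of 21 alpha-defensins 0 were called, their differences lay between -0.15 and 0.15, and the median was -0.06. The list mean was 11.28 ± 0.12 (SD, n = 5) in the triple mutants, with mice from 11.13 to 11.41, beside 11.40 ± 0.18 in Fadd fl/fl and 11.24 ± 0.22 in Casp8 fl/fl mice. It was 9.57 in FADD IEC-KO Mlkl -/-, 11.02 in CASP8 IEC-KO Mlkl -/-, 8.79 in FADD IEC-KO and 8.65 in CASP8 IEC-KO mice. Against FADD IEC-KO Mlkl -/- 16 of the 21 defensins were higher in the triple mutants, with a median difference of 1.56, where 5.51% of all genes were called higher. With the title series as a covariate 9 were called, where the background was 2.1%. All 5 FADD IEC-KO Mlkl -/- mice have numbers below 100, so that fit takes the effect of the series from other groups. Against CASP8 IEC-KO Mlkl -/- 0 were called. Defa24, the brightest of the list, was 12.32 to 12.46 in the triple mutants and 12.25 to 12.66 in the controls (-0.09 ± 0.33, adjusted p = 0.9291). This SE pools the spread of all 9 genotypes. The SD of Defa24 was 0.05 in the triple mutants, 0.13 in each control group and 0.12 to 1.54 in the other groups. In a limma fit of the 15 compared arrays alone Defa24 was not called either (adjusted p = 0.5915). Alpha-defensins are near-identical copies: the probes of Defa3 and Defa17, and those of Defa20 and Defa32, gave the same values on every array, which left 19 distinct profiles.

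The other Paneth cell list had 1 fall among 14 genes, where 1.54% of all genes were called lower. Nupr1, a stress-response regulator, fell by 0.52 (SE 0.15, adjusted p = 0.0415). Lysozyme Lyz1 was 11.65 to 12.19 in the triple mutants and 11.64 to 12.57 in the controls (-0.34 ± 0.28, adjusted p = 0.5570), and Ang4, a secreted ribonuclease, differed by -0.60 ± 0.47 (adjusted p = 0.5383); these 2 were chosen after their values were seen. The list mean was 9.65 ± 0.21 in the triple mutants, 10.11 ± 0.66 in Fadd fl/fl and 9.56 ± 0.53 in Casp8 fl/fl mice, with Fadd fl/fl mouse 1 the lowest of all at 8.93. Within the title series of 200 and over 5 of the 14 were called lower, where 0.893% of all genes were. The controls of that fit are 3 Fadd fl/fl mice and 1 Casp8 fl/fl mouse. In the main fit 3 of the 14 were called lower against Fadd fl/fl alone and 0 against Casp8 fl/fl alone. In tissue RNA fewer cells of a type and less RNA per cell cannot be told apart, and this holds for every cell type list here. Of 16 goblet cell genes 1 fell, the sialyltransferase St3gal6 (-0.56 ± 0.13, adjusted p = 0.0092), against the same 1.54% of all genes. The main mucin Muc2 was 12.85 to 12.94 against 12.92 to 13.06 (-0.10 ± 0.05, adjusted p = 0.2993). No stem cell gene (of 9), proliferation gene (of 21), enteroendocrine hormone gene (of 17) or tuft cell gene (of 13) was called.

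**Figure D3:**
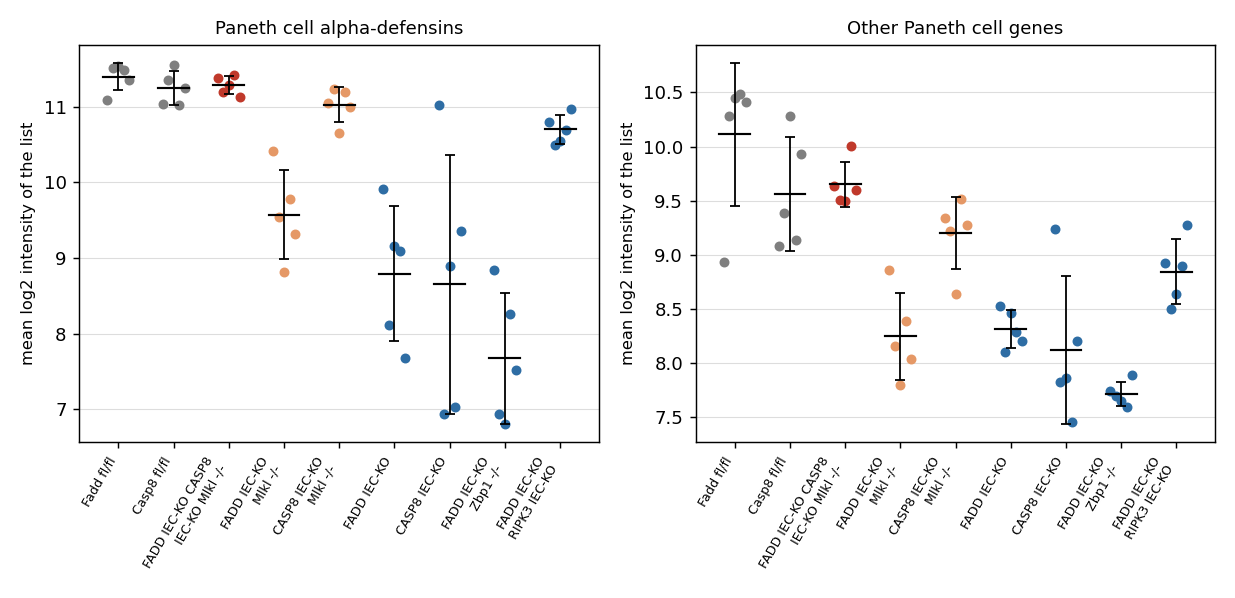
The y axis gives the mean log2 intensity of a list, alpha-defensins in one panel and other Paneth cell genes in the other, and the x axis the 9 genotypes; each point is 1 mouse, and the lines mark the group mean and SD (n = 5). For the alpha-defensins the triple mutants, at 11.13 to 11.41, lie among the floxed controls, at 11.03 to 11.55.

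The probe signal of Mt1, which encodes the zinc- and copper-binding protein metallothionein 1, rose in the triple mutants with hardly any spread between mice. It read 12.53, 12.57, 12.58, 12.58 and 12.58 in the triple mutants. It read 11.55, 11.39, 11.10, 11.46 and 11.33 in Fadd fl/fl mice and 11.34, 11.47, 11.66, 11.57 and 11.61 in Casp8 fl/fl mice. The triple mutants lay within a narrow range and none came near a control. The rise was 1.12 ± 0.08 (adjusted p = 3.20e-13), or 2.17-fold. Within the title series of 200 and over it was 1.19 ± 0.10 (adjusted p = 3.95e-05). The separation extended over the series: Mt1 was the only gene for which all 35 IEC-KO mice, at 12.01 to 12.76, lay above all 10 floxed controls, at 11.10 to 11.66 (1 of 19494, or 0.00513%), and 0 genes lay below them in the same way. The lowest of the 35 was FADD IEC-KO mouse 1, whose Fadd, at 7.32, was also within the range of the controls. Every IEC-KO group carries an epithelial deletion and the recombinase that makes it, so these cannot be told apart. The sources used here give neither the position of the Mt1 probe nor the sequence of the Cre transgene. Some transgenes carry metallothionein sequence, and whether the probe reads any from the transgene rather than from Mt1 RNA was not tested.

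Mt2, the neighbouring metallothionein gene, was not called. It was 10.37 to 10.86 in the triple mutants, 9.98 to 10.63 in Fadd fl/fl and 9.70 to 10.88 in Casp8 fl/fl mice, so the groups overlapped (0.30 ± 0.21, adjusted p = 0.4793). Mt1 was the sole call among 10 metallothioneins and zinc transporters, where 3.69% of all genes were called. The promoters of both are shown, with capitals at TGCACNC and TGCGCNC, the core of the metal response element, on either strand; this motif was chosen after the values of Mt1 were seen. Mt1 has 3 matches, from 23 bases before to 20 bases after the transcription start. Mt2 has 4, from 223 bases before to 4 bases after it. Of all 15683 windows 33.3% hold at least 1.
Mt1 (GRCm38.p6 chr8:94178839-94179138, plus strand): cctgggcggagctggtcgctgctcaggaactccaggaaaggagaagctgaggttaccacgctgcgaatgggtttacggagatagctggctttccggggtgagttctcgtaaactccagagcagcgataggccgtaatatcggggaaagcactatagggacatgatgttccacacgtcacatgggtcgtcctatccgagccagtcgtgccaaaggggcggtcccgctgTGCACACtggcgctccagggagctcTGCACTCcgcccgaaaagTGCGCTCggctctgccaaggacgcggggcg
Mt2 (GRCm38.p6 chr8:94172368-94172667, plus strand): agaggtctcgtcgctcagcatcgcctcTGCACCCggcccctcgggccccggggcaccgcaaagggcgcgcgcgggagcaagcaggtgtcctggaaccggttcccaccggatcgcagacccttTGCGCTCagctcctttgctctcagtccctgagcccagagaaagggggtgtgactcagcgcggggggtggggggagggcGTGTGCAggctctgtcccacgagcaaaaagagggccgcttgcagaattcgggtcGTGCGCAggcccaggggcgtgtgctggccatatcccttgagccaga
The motif is present in the window of the gene that rose and in that of the gene that was not called.

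**Figure D4:**
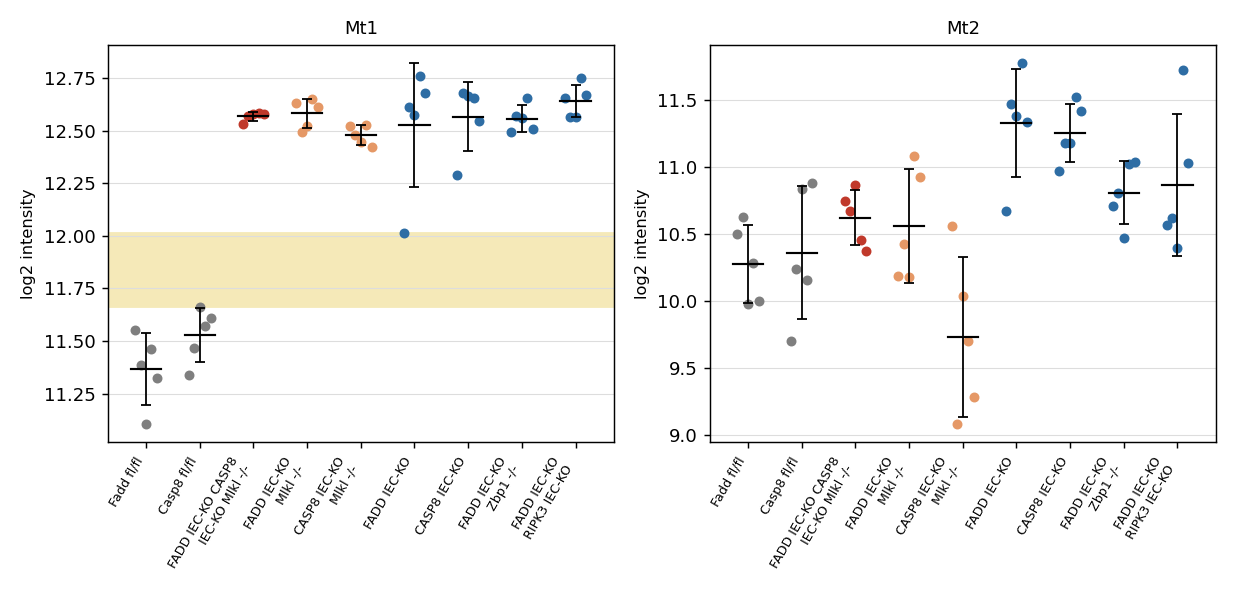
The y axis gives log2 intensity of Mt1 in one panel and Mt2 in the other, and the x axis the 9 genotypes; each point is 1 mouse, and the lines mark the group mean and SD (n = 5). For Mt1 a shaded gap between 11.66 and 12.01 parts all floxed controls from all IEC-KO mice, and for Mt2 the genotypes overlap.

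Where 1.54% of all genes were called lower, 3 of 14 fibroblast and matrix genes fell. They were Mmp2, a collagenase, by 0.55 (SE 0.15, adjusted p = 0.0247), Col6a2 by 0.40 (adjusted p = 0.0175) and Col6a1 by 0.29 (adjusted p = 0.0082). The list mean was 8.33 to 8.64 in the triple mutants, 8.52 to 9.06 in Fadd fl/fl and 8.40 to 8.85 in Casp8 fl/fl mice. Mmp2 differed by -0.86 from Fadd fl/fl (adjusted p = 0.0019) and by -0.25 from Casp8 fl/fl (adjusted p = 0.5151), and the collagen genes likewise were called against Fadd fl/fl and not against Casp8 fl/fl. The endothelial receptor Tie1 fell by 0.35 (adjusted p = 0.0265), 1 of 12 endothelial and lymphatic genes. In the fit within the title series of 200 and over, 5 of the 12 endothelial and lymphatic genes and 4 of the 14 fibroblast genes were called lower, with list medians of -0.51 and -0.40, where 0.893% of all genes were called lower. The controls of that fit are 3 Fadd fl/fl mice and 1 Casp8 fl/fl mouse. In the main fit 2 of the 12 and 3 of the 14 were called lower against Fadd fl/fl alone. Against Casp8 fl/fl alone 0 of either list were. The endothelial list mean was 6.57 to 6.85 in the triple mutants, 6.84 to 7.31 in Fadd fl/fl and 6.47 to 7.26 in Casp8 fl/fl mice. The mast cell protease Mcpt2 fell by 0.43 (adjusted p = 0.0197), the sole call among 9 mast cell genes. Of the other 8, 4 lay above 0 and 4 below. Sdc1, a surface proteoglycan of plasma cells and epithelium, rose by 0.33 (adjusted p = 0.0093), the sole call among 9 plasma cell genes. Of the other 8, 5 lay above 0 and 3 below. Over all genes 2.15% were called higher. None of 18 macrophage and dendritic cell, 13 neutrophil, 21 T cell, 16 B cell or 13 smooth muscle genes was called. The macrophage list mean was 6.64 to 6.85 in the triple mutants and 6.53 to 7.16 in the controls, and the neutrophil mean 4.57 to 4.75 against 4.59 to 4.85. Over all 48 lists, 21 had no called member.

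**Figure D5:**
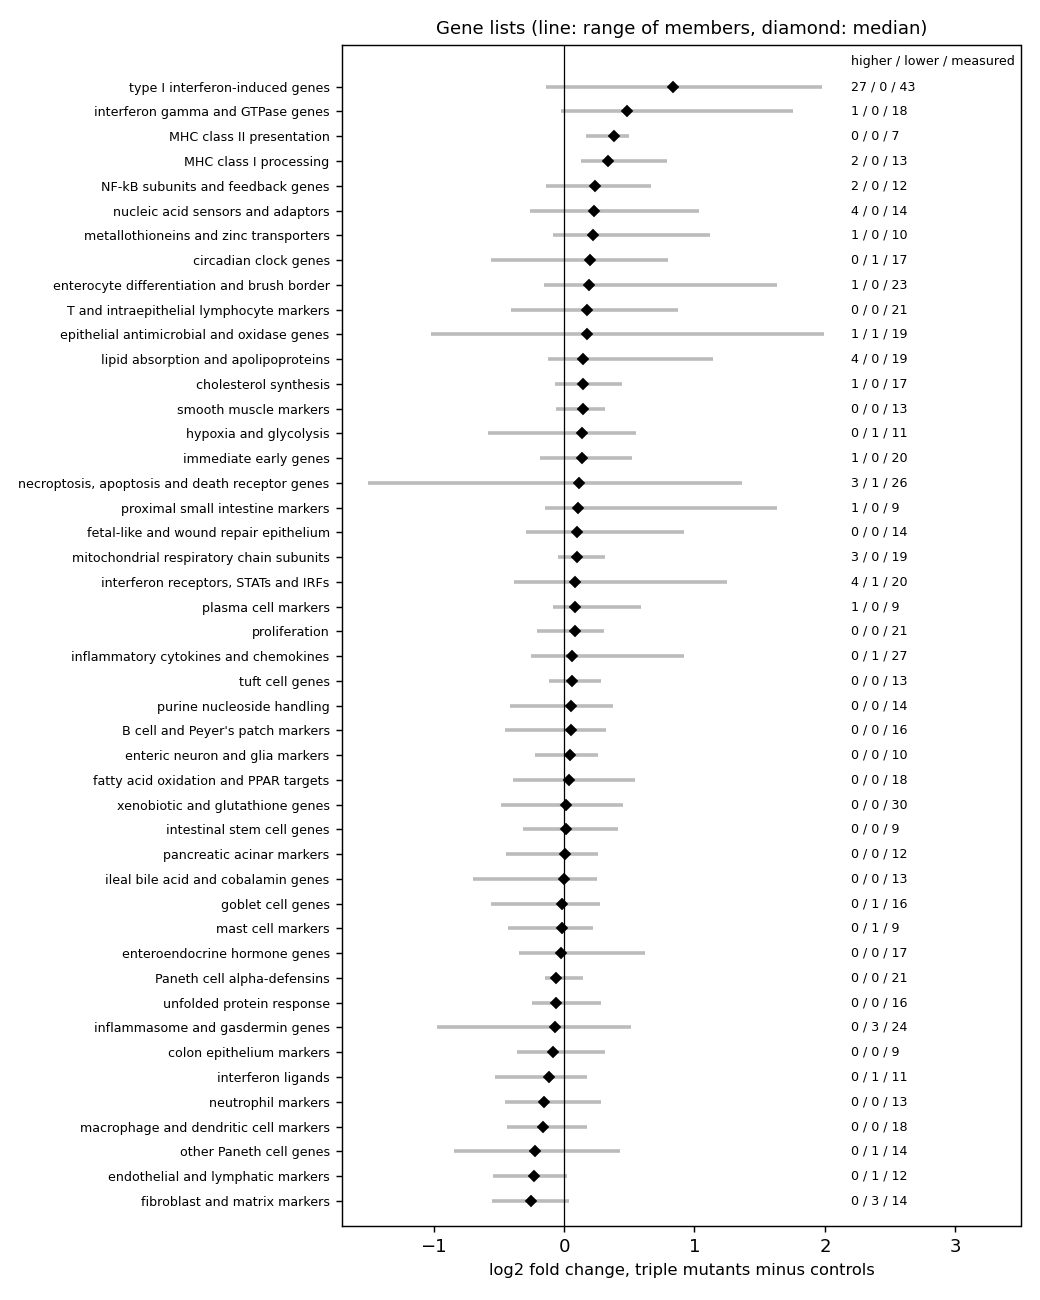
Each row is 1 gene list, with log2 fold change, triple mutants minus controls, on the x axis; the line spans the lowest to the highest member, the diamond marks the median, and the numbers at the right give the members called higher, called lower and measured. The type I interferon list has the highest median, at 0.83, and the alpha-defensins span the narrow range from -0.15 to 0.15.

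Genes that fell were mostly single genes outside the lists. Chka, choline kinase, the first enzyme of phosphatidylcholine synthesis from choline, was 6.60 to 6.86 in the triple mutants and 7.23 to 7.88 in the controls, a fall of 0.76 (SE 0.11, adjusted p = 3.29e-05). The groups did not overlap for Chka. Ints6l, a paralogue of an Integrator subunit gene, was 7.27 to 8.06 against 8.28 to 9.02 (-0.76 ± 0.14, adjusted p = 8.02e-04). Gnrh1, the gonadotropin-releasing hormone gene, was 5.61 to 6.05 against 6.30 to 7.06 (-0.74 ± 0.13, adjusted p = 3.44e-04). Prex2, a guanine nucleotide exchange factor for Rac, fell by 0.73 and Polg2, the accessory subunit of mitochondrial DNA polymerase, by 0.71. Fam110b, Phxr4 and Spata1 fell by 0.68, 0.65 and 0.63, and all of these genes lay below every control in every triple mutant. The angiogenic factor Vegfa fell by 0.58 (adjusted p = 0.0160; 0.0514 without Fadd fl/fl mice 1 and 5).

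Some genes in the triple mutants also differed, in the same direction, from both double mutants. These comparisons share the triple-mutant arrays, so their agreement is no independent support. Against FADD IEC-KO Mlkl -/- 1533 genes were called (7.86%), and against CASP8 IEC-KO Mlkl -/- 605 (3.1%), which became 667 (3.42%) and 164 (0.841%) with the title series as a covariate. The higher calls were 1074 (5.51%) and 397 (2.04%), and after quantile normalization their share of all calls moved from 70.1% to 51.8% and from 65.6% to 51.9%. Higher in all 3 comparisons were 62 genes (0.318%), and lower 38 (0.195%). Prss30, a serine protease, was 9.22 to 9.44 in the triple mutants, 8.57 to 9.08 in the controls, 8.11 to 8.39 in FADD IEC-KO Mlkl -/- and 8.71 to 9.11 in CASP8 IEC-KO Mlkl -/- mice. It overlapped none of these groups, and it rose by 0.53 against the controls (adjusted p = 5.99e-04), 1.10 against the former double mutant (adjusted p = 1.19e-08) and 0.41 against the latter (adjusted p = 0.0270). Rhob, a small GTPase, rose by 0.51, 0.73 and 0.76 in that order, and overlapped the controls. Cx3cl1, the chemokine fractalkine, was 8.74 to 9.02 in the triple mutants and 8.05 to 8.62 in both double mutants, and rose by 0.47 against the controls. Stk10, Sec14l4 and Vps37c rose by 0.46, 0.46 and 0.44 against the controls, and Stk10 lost that call without Fadd fl/fl mice 1 and 5 (adjusted p = 0.0901). On the lower side stood Mlkl, Chka, Gnrh1, Tbrg3, Leng8 and Ttll3. Chka was 6.98 to 7.78 in FADD IEC-KO Mlkl -/- and 7.38 to 7.83 in CASP8 IEC-KO Mlkl -/- mice, and all of them lay above the triple mutants. With the title series as a covariate some differences from the double mutants were no longer called. Against FADD IEC-KO Mlkl -/- these were Vps37c (adjusted p = 0.2106), Sec14l4 (adjusted p = 0.0688) and Ttll3 (adjusted p = 0.0543). Against CASP8 IEC-KO Mlkl -/- they were Vps37c (adjusted p = 0.1761), Stk10 (adjusted p = 0.0998), Cx3cl1 (adjusted p = 0.0950), Gnrh1 (adjusted p = 0.0712) and Ttll3 (adjusted p = 0.1922).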

How the data were processed

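Ileum tissue was frozen, homogenised and extracted as total RNA, and labelled single-stranded cDNA was made with a whole-transcript kit, per the labels' protocols. The submitters' processing notes name Affymetrix Expression Console and Transcriptome Analysis Console, without versions. The values used are the authors' deposited log2 intensities, with array medians of 6.36 to 6.44. Background correction and normalization are not given in the sources used here, and depth has no meaning for arrays, whose precision is limited by their number. Of 22142 probes 19527 had a symbol and 2615 had none. The probe with the highest mean stood for a gene, which gave 19494 genes.

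Genotypes came from the titles. limma 3.58.1 (R 4.3.3) fitted 1 mean per genotype over 45 arrays, with 36 residual degrees of freedom, empirical Bayes moderation and Benjamini-Hochberg adjustment over all genes, and was tested on simulated data. The contrast weights both control groups equally, except within the title series of 200 and over. That fit pools 3 Fadd fl/fl mice and 1 Casp8 fl/fl mouse. Alternatives changed the groups fitted, covariates (title series, a sex index from Eif2s3y, Kdm5d and Uty, and a clock index), scaling, filters, moderation and the mice used. Leaving out Fadd fl/fl mice 1 and 5 together was added after the data were seen. Promoter windows came from RefSeq (GRCm38.p6).

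The comparison, the gene lists and the tests were chosen with earlier results of these data known. The rule for named genes took the 5 targeted genes, 12 rises and 12 falls (the largest among calls without overlap), up to 4 called members of each list (or its brightest member), 6 genes above and 6 below both double mutants, and up to 3 in each direction between the controls. Sex-linked genes and clone names were passed over. Further list members, and genes beside the targeted loci, were added after their values were seen.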

Additional observations from a re-analysis of the deposited data

Results flagged for a closer look

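In 291 checks of a named gene within 1 group of 5 mice, 24 had a highest or lowest mouse set apart from the others by more than the critical share of the range (0.71), where chance gives about 1 in 20. They fell on 10 triple-mutant groups, 7 Fadd fl/fl groups and 7 Casp8 fl/fl groups.

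Among the triple mutants, mouse 5 was low for Isg15, at 6.73 against 7.60 to 7.82 in the others, and high for Ripk3, at 8.68 against 8.34 to 8.43. Mouse 4 was low for the pseudogene Pisd-ps3, at 7.61 against 8.71 to 8.96. The same mouse was high for the lysozyme gene Lyz2, at 10.96 against 10.18 to 10.35, and for Defa24, at 12.46 against 12.32 to 12.36. Mouse 3 was high for Adar, at 9.66 against 9.48 to 9.53, and for Fabp6, at 12.78 against 12.45 to 12.51. Mouse 1 was high for Vil1, at 11.85 against 11.77 to 11.78, low for Col6a2, at 8.04 against 8.20 to 8.24, and low for Mt1, at 12.53 against 12.57 to 12.58, in each case over a narrow range.

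In Fadd fl/fl mice, replicate 5 was high for Reg4, at 11.63 against 9.83 to 10.33. It was low for the guanine deaminase gene Gda, at 10.89 against 11.39 to 11.52, for Nfkb2, at 7.27 against 7.47 to 7.51, and for Sec14l4, at 3.17 against 3.52 to 3.65. Replicate 1 was low for Lyz2, at 10.16 against 11.16 to 11.38, and high for Alox5ap, a tuft cell gene, at 7.38 against 7.27 to 7.30. Replicate 2 was high for Stk10, at 9.05 against 8.35 to 8.48.

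In Casp8 fl/fl mice, replicate 5 was high for Mlkl, at 8.98 against 8.43 to 8.59, and for Oasl1, at 7.11 against 6.04 to 6.27. It was low for the smooth muscle actin gene Acta2, at 11.04 against 11.62 to 11.76, and for the neuronal receptor Ret, at 7.29 against 7.40 to 7.44. It is the one Casp8 fl/fl mouse with a title number of 200 or more. Replicate 1 was low for Naip5, at 11.03 against 11.16 to 11.20, for Naip6, at 11.06 against 11.25 to 11.28, and for Vps37c, at 6.79 against 7.12 to 7.14.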

How the results depend on the processing

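No called gene changed sign, but the balance of the 720 calls, 419 higher and 301 lower, turned to 315 and 437 after quantile normalization and to 111 and 174 within the title series of 200 and over. Quantile normalization also turned the balance against Fadd fl/fl, from 334 higher and 253 lower to 326 and 358, and against Casp8 fl/fl, from 132 and 98 to 116 and 169. The cause of each move in a count was not tested, except that fits on fewer arrays have fewer degrees of freedom. The 720 calls against both controls became 451 with only these groups fitted, 475 with the title series as a covariate, 285 within the series of 200 and over, 1192 with array weights and 444 without Fadd fl/fl replicates 1 and 5 together. Leaving out 1 mouse gave 368 to 727. Against Fadd fl/fl the 587 calls became 331 with only the groups compared, 973 with array weights, 338 without replicates 1 and 5 together and 380 to 566 with 1 mouse left out, the lowest without Fadd fl/fl replicate 5. Against Casp8 fl/fl the 230 calls became 97 with only the groups compared, 94 with the title series, 417 with the clock index, 435 with array weights and 134 to 279 with 1 mouse left out. Between the controls, 1 call became 2 with only these groups, 8 with the sex index, 11 after quantile normalization, 9 with a filter on dim genes and with trend and robust moderation, 15 with array weights, 5 without Fadd fl/fl replicates 1 and 5, and 0 with the title series, the clock index or all probes. Leaving out 1 mouse gave 0 to 63, the highest without Fadd fl/fl replicate 1.

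Against FADD IEC-KO Mlkl -/- the 1533 calls became 667 with the title series, 2839 with array weights and 935 to 1576 with 1 mouse left out, the lowest without triple mutant 1. Against CASP8 IEC-KO Mlkl -/- the 605 calls became 164 with the title series, 316 with the clock index, 1479 with array weights and 317 to 635 with 1 mouse left out. Of the 720 genes called, 176 to 720 were also called in the same direction under the alternatives, and of the 27 interferon genes 21 to 27. Over the named genes, 2507 alternative values kept their side of the threshold, 199 lost the call and 7 gained it. No paired analysis was possible because the titles share no numbers across groups. The limits lie in the design: 5 arrays per genotype, no Mlkl -/- mice with intact Fadd and Casp8, controls that mostly fall in another title series, and tissue RNA. Dim genes such as Ifnk and Fam110b lie near the low end of the intensity range.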

Other observations

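The genes below lie outside the groups described so far and were chosen after their values were seen. Tet2 and Lncpint did not overlap the controls. Tet2, an enzyme that oxidises methylcytosine, was 8.23 to 8.62 in the triple mutants and 8.79 to 9.22 in the controls (-0.57 ± 0.08, adjusted p = 4.68e-06). The long noncoding RNA Lncpint was 7.76 to 8.04 against 8.19 to 8.63 (-0.53 ± 0.08, adjusted p = 3.69e-05). Il1rn, the interleukin-1 receptor antagonist, was 6.15 to 7.04 against 5.26 to 6.37 and was not called (0.92 ± 0.35, adjusted p = 0.1316). The stem cell gene Lgr5 was 7.32 to 7.96 against 7.47 to 8.37 (-0.32 ± 0.10, adjusted p = 0.0734), and the proliferation marker Mki67 was 9.86 to 10.13 against 9.70 to 10.29 (-0.01 ± 0.10, adjusted p = 0.9608).

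Of the 2615 probes without a gene symbol, 27 were called higher and 66 lower in the triple mutants, which is 3.56% of those tested.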
